A study of Vitis vinifera with 6 samples.

Results

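The NAC transcription factors described here are 7 grapevine (Vitis vinifera) genes taken from a list of identifiers, and all 7 were found among the 28059 gene models of the table. They are NAC33 (VIT_19s0027g00230), NAC60 (VIT_08s0007g07670), NAC61 (VIT_08s0007g07640), NAC13 (VIT_02s0012g01040), NAC26 (VIT_01s0026g02710), NAC11 (VIT_14s0108g01070) and NAC03 (VIT_06s0004g00020). These names are those given with the list, in its order; the files hold identifiers alone, so what is said below of each gene's known role rests on that pairing. They were measured by mRNA-Seq in 6 libraries, 1 for each of 2 clones of the wine cultivar Sangiovese at each of 3 stages. The mutant (MT) is a spontaneous somatic variant that bears seedless berries, and the wild-type (WT) is the seeded clone from which it derives. Flowers still in compact groups, before fertilization, were taken at stage E-L 15, young berries at stage E-L 27 and ripe berries at harvest, stage E-L 38, each from MT and from WT vines. Whole inflorescences or whole bunches were sampled, and each library pooled the RNA of 3 extractions from 1 biological replicate. No clone and stage has a second library, so no difference between 2 libraries has a replicate check, and the intervals below cover counting error only. The mutant is a single clone, so that effects of the clone and of its lack of seeds cannot be told apart.

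NAC proteins are plant transcription factors that share a conserved DNA-binding domain at their N-terminal end and differ in the C-terminal part, which activates or represses their target genes. In fleshy fruits several members take part in the change from growth to ripening, and the tomato ripening gene NOR belongs to this family. In grapevine, NAC33 is known to end photosynthetic activity and growth at the change from vegetative to mature organs, NAC60 is a regulator of ripening and senescence related to NOR, and NAC61 acts late in ripening. NAC11 and NAC13, with NAC33 and NAC60, have been listed among grapevine genes that are switched on between the growth and the ripening of the berry. NAC26 has been linked to the size of berries and seeds and is related to NAP, a senescence regulator of Arabidopsis.

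Between 70331451 and 98800321 reads were counted per library. Levels are counts scaled by the uniquely mapped reads of the library (RPM), not divided by gene length, so that they compare libraries for 1 gene and not the genes with each other. In a library, 3 reads correspond to 0.0304 to 0.0427 RPM, and the lowest count of any of the 7 genes was 7 reads. The stage labels were checked on 2 flower genes, PISTILLATA and an AP3 MADS-box gene, which together reached 939 RPM (MT) and 1076 RPM (WT) at E-L 15 and 1.11 RPM (MT) and 0.0405 RPM (WT) at E-L 38. For 2 genes of ripe berries, the beta-expansin EXPB4 and a class IV chitinase, the sum was 2108 RPM (MT) and 2072 RPM (WT) at E-L 38. These flower and ripe berry genes are among the candidates that the study listed from these same libraries, so the check is not an independent one. The 7 seed genes OLE-2, globulin-1, 7S globulin, EM6, ABI3, PM31 and PM34, which the study picked from these same libraries, summed to 1.48 RPM in MT ripe berries, where 4 of them were at 0, against 862 RPM in WT ripe berries, where 0 of them were at 0. The whole organs therefore differed in seed RNA, and in such bulk samples fewer cells of a type and less RNA per cell cannot be told apart. The part of seed tissue in the differences of the NAC genes was not tested.

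The first question was how the genes changed over development whatever the clone. In the fit over all 6 libraries (edgeR quasi-likelihood test with terms for stage and clone, Benjamini-Hochberg adjustment over 23570 genes, threshold 0.05), in which the other clone is the only replication of a stage, 4 of the 7 genes were higher at E-L 27 than at E-L 15, where 10.7% of all genes were. In ripe berries (E-L 38) 5 of 7 were higher than in young berries, against 29.9% of all genes, and 6 of 7 were higher than in flowers, against 30.9% of all genes. None of the 7 fell past the threshold in any of these comparisons. The ripe berry libraries also differed in composition from the earlier ones: when libraries were scaled by their totals alone, as RPM are, all genes had a median log2 change of -0.44 between ripe and young berries, against -0.07 with TMM factors, and the genes that rose were 33.0% of those past the threshold, against 46.7%. Log2 changes from the fit are therefore relative to TMM factors, and ratios of RPM between ripe berries and an earlier stage are lower than these by about that shift.

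NAC33 rose at each step. It was counted with 0.580, 1.45 and 19.3 RPM in flowers, young berries and ripe berries of the mutant, and with 0.875, 2.47 and 41.8 RPM in those of the wild-type. The level was lowest in flowers and highest in ripe berries of each clone, and the mutant library was the lower one at every stage. The log2 change was 1.42 ± 0.17 (SE) between E-L 27 and E-L 15, with an adjusted p of 0.0137 in the edgeR fit, and 4.28 ± 0.18 between E-L 38 and E-L 27, with an adjusted p of 0.000358 in the same edgeR fit. Without a term for clone the first of these calls was lost (edgeR adjusted p = 0.0701). In RPM, ripe berries had 13.3 times the level of young berries in MT (95% interval 10.9 to 16.5) and 16.9 times in WT (95% interval 14.8 to 19.4).

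NAC60 had most of its increase between young and ripe berries, and the clones crossed over on the way. The mutant had 1.90, 3.33 and 65.4 RPM over the stages and the wild-type had 2.06, 7.54 and 40.2 RPM. The clones thus started alike, the wild-type was ahead in young berries and the mutant in ripe ones. The edgeR log2 change was 3.70 ± 0.54 (SE) between E-L 38 and E-L 27 (adjusted p = 0.0049), while that between E-L 27 and E-L 15, 1.45 ± 0.51, missed the threshold (adjusted p = 0.112). Within the mutant the level in ripe berries was 19.6 times that in young berries (95% interval 17.2 to 22.5), and within the wild-type it was 5.33 times (4.91 to 5.79).

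NAC61 rose at each step too. Its levels were 5.65, 12.2 and 91.7 RPM in the mutant and 4.54, 10.96 and 53.8 RPM in the wild-type. The mutant library was the higher one at each stage, by a small margin in flowers and young berries. The edgeR log2 change was 1.21 ± 0.20 (SE) between E-L 27 and E-L 15 (adjusted p = 0.0253) and 2.98 ± 0.21 between E-L 38 and E-L 27 (adjusted p = 0.000804). By their identifiers, NAC60 and NAC61 both lie on chromosome 8, close to each other in number, and 1 further identifier of the table, VIT_08s0007g07660, to which the files give no name, stands between them. This gene had 41.6, 69.6 and 132 RPM in the mutant and 32.5, 66.9 and 105 RPM in the wild-type, so that its ripe berries had 1.89 times the level of young berries in MT and 1.57 times in WT, against 7.52 times and 4.91 times for NAC61. The other 5 genes are numbered on chromosomes 19, 2, 1, 14 and 6.

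NAC13 had the steepest change of the 7. It was counted with 2.60, 2.42 and 113 RPM in the mutant and with 2.34, 1.19 and 129 RPM in the wild-type. Flowers and young berries were low in both clones and only the ripe berries stood high. The edgeR log2 change between E-L 38 and E-L 27 was 6.49 ± 0.35 (SE, adjusted p = 0.00051), and between E-L 27 and E-L 15 it was -0.49 ± 0.31 (adjusted p = 0.303). The ratio of ripe to young berries was 46.6 in MT (95% interval 40.0 to 54.6) and 109 in WT (89.8 to 133), the gap lying in the young berries, where the wild-type had 107 reads.

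NAC26 and NAC11 differed from these 4 genes in when they reached their full level. NAC26 was counted with 26.2, 53.5 and 114 RPM in the mutant and with 24.8, 118 and 110.0 RPM in the wild-type. NAC11 was counted with 5.01, 17.5 and 26.9 RPM in the mutant and with 5.15, 31.0 and 25.9 RPM in the wild-type. For both genes the 4 libraries of flowers and of ripe berries were close to each other between the clones, the wild-type young berries were already at or above the ripe level by RPM, and the mutant young berries lay between flowers and ripe berries. Between E-L 27 and E-L 15 the edgeR log2 change was 1.70 ± 0.37 (SE) for NAC26 (adjusted p = 0.0416) and 2.24 ± 0.28 for NAC11 (adjusted p = 0.0143). Between E-L 38 and E-L 27 it was 0.82 ± 0.36 for NAC26 and 0.53 ± 0.27 for NAC11, and neither passed the threshold (edgeR adjusted p = 0.107 and 0.150), but each passed it without either of the wild-type libraries of those stages (edgeR adjusted p = 0.0091 and 0.0442 for NAC26, and 0.0428 and 0.0447 for NAC11). DESeq2 called NAC26 as well (adjusted p = 0.039).

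NAC03 had the fewest reads of the 7 over the 6 libraries and did not share their course. The mutant had 1.49, 0.0995 and 0.677 RPM (131, 7 and 48 reads) and the wild-type had 1.03, 0.609 and 3.32 RPM (95, 55 and 328 reads). In both clones young berries were lowest, and ripe berries were highest in the wild-type and flowers in the mutant. The edgeR log2 change between E-L 38 and E-L 27 was 2.82 ± 0.88 (SE, adjusted p = 0.047), and this call was lost when libraries were scaled by their totals alone (adjusted p = 0.0707), without a term for clone (adjusted p = 0.054) and without the MT E-L 27, WT E-L 27 or WT E-L 38 library (adjusted p = 0.185, 0.0951 and 0.192 in edgeR). The edgeR log2 change between E-L 38 and E-L 15 was 0.49 ± 0.87 (adjusted p = 0.644). Its direction turned on single libraries: it was 2.09 without MT E-L 15 (edgeR adjusted p = 0.0452), -0.79 without WT E-L 15 (edgeR adjusted p = 0.226) and -0.22 without WT E-L 38 (edgeR adjusted p = 0.840).

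**Figure D1:**
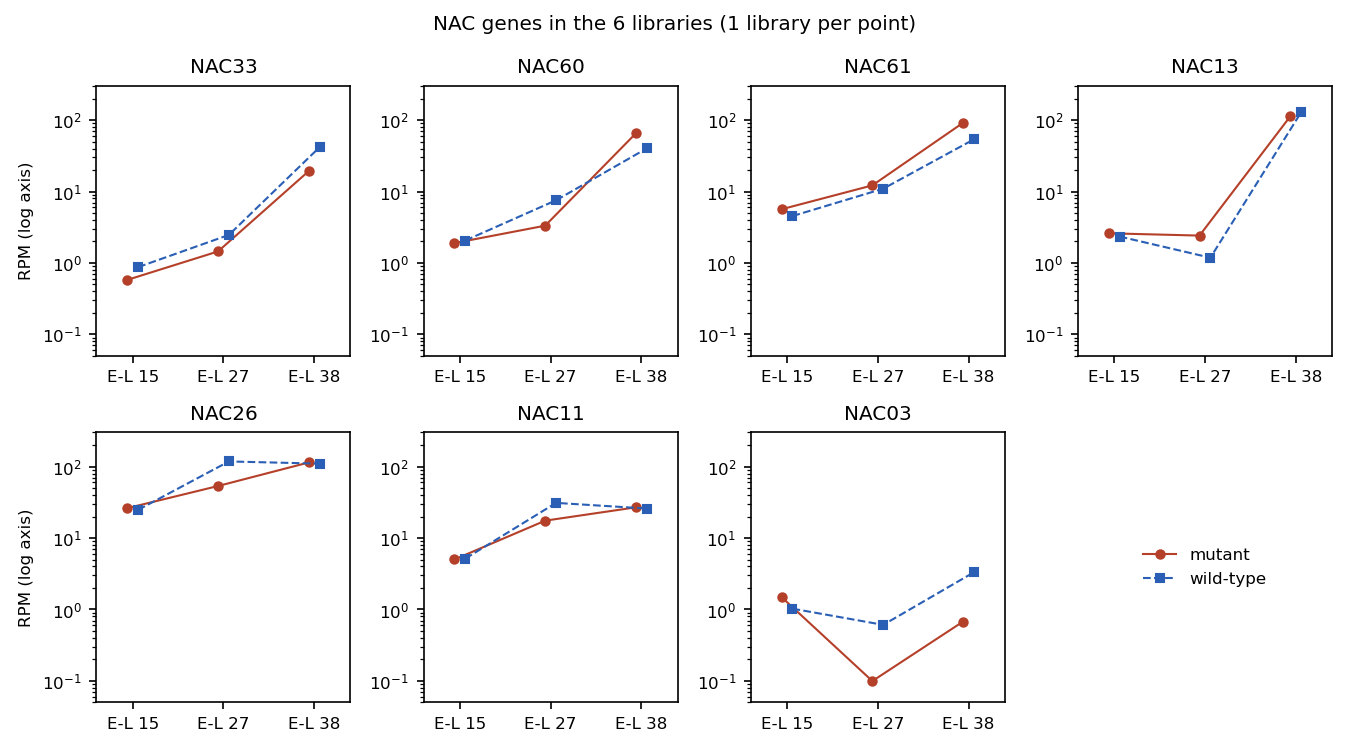
Levels of the 7 NAC genes in RPM (log axis, the same in each panel) at the 3 stages in the mutant (circles, solid line) and the wild-type (squares, dashed line), each point being 1 library without replicate error. NAC13 stays between 1.19 and 2.60 RPM until E-L 27 and stands at 113 (MT) and 129 RPM (WT) at E-L 38, while NAC26 and NAC11 in the wild-type are already at 118 and 31.0 RPM at E-L 27.

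The calls between young berries and flowers were the least secure. Leaving out any 1 of the 4 libraries of E-L 15 and E-L 27 leaves 1 library of that stage. No edgeR call between these stages then remained, among the 7 genes or among all genes. The edgeR log2 changes of the called genes then ran from 1.27 to 1.56 for NAC33 and from 0.98 to 1.4 for NAC61. For NAC26 they ran from 1.03 to 2.26 and for NAC11 from 1.77 to 2.63. Without either library of E-L 38 the edgeR log2 change of NAC60 was 1.37, against 1.45 over all 6 libraries. DESeq2 called 6 of the 7, where 7531 of 23767 genes tested were called in either direction. Of these 6, NAC03 was lower at E-L 27 (DESeq2 log2 change -2.46, adjusted p = 0.0362).

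Within each clone, stages were also compared by a rewritten version of the DESeq procedure for libraries without replicates, which compares 2 libraries and not the stages as such. Its calls and the background shares beside them are those of the rewritten version and not calls made by the study. With limits of 0.05 on the adjusted p and of 1 on the size of the log2 fold change it called 0 of the 7 genes in MT young berries against MT flowers, where 0.628% of all genes were called higher, and 0 in WT young berries against WT flowers, where 0.894% were. In the second of these NAC26 became a call under 2 of the 6 settings tried. In ripe against young berries it called NAC13 higher in MT (1 of 7, background 0.581%) and in WT (1 of 7, background 0.767%). In ripe berries against flowers it called NAC13 and NAC60 higher in MT (2 of 7, background 0.624%) and NAC13 and NAC33 higher in WT (2 of 7, background 1.08%). NAC13 in both clones, NAC60 in MT and NAC33 in WT were called under 6 of 6 settings in ripe berries against flowers, whereas NAC33 in MT and NAC60 in WT were called under 2 of 6. Whether NAC60 differs between the clones in this step was not tested: ripe berries had 34.4 times the level of flowers in MT (95% interval 29.5 to 40.4) and 19.5 times in WT (16.9 to 22.6).

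The second question was how the mutant differed from the wild-type. Over the 3 stages no NAC gene differed between the clones in the edgeR fit (0 of 7, background 0.0%), and 2 of 7 had an unadjusted p under 0.05, against 5.14% of all genes. These were NAC33, with a log2 difference of -0.79 ± 0.13 (SE, MT over WT, edgeR adjusted p = 0.807), lower in the mutant at 3 of 3 stages, and NAC61, with 0.47 ± 0.16 (edgeR adjusted p = 0.807), higher in the mutant at 3 of 3 stages. DESeq2 called 1 of the 7, NAC33 (log2 difference -0.80, adjusted p = 0.0252), where it called 0.224% of all genes. Such a fit looks for a difference that is the same at all stages, which most of the 7 genes did not show. The stages are therefore given singly below, with ratios of 2 libraries and no test of the clones. The study avoided this direct comparison, to limit differences from sampling the clones out of step. It also reports that both clones had reached the same stage on each date. A lag between the clones was not tested here.

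In flowers the clones were close. The ratio of mutant to wild-type ran between 0.662 for NAC33 and 1.45 for NAC03, and for 4 of the 7 genes (NAC60, NAC13, NAC26 and NAC11) its 95% interval held 1. More than 2-fold differences, counted with 0.5 RPM added to each value, were seen in 0 of 7 genes, and among all genes whose mean reached 1 RPM in 0.59% (lower in the mutant) and 0.207% (higher).

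In young berries 5 of the 7 genes were lower in the mutant and 2 were higher, each with a 95% interval that left out 1. With deep counts such intervals leave out 1 for small differences too, and the share of all genes was not counted. With 0.5 RPM added, NAC60 and NAC26 were more than 2-fold lower (2 of 7, against 1.96% of all such genes) and 0 of 7 were more than 2-fold higher, against 0.378%. NAC60 was 2.27-fold lower in the mutant (95% interval 1.95 to 2.64), NAC26 2.21-fold lower (2.13 to 2.29), NAC11 1.77-fold lower (1.66 to 1.90) and NAC33 1.70-fold lower (1.34 to 2.17). NAC03 was 6.12-fold lower on 7 reads in MT and 55 in WT, with a wide interval of 2.78 to 15.9, and its mean was below 1 RPM. NAC13 went the other way, with a ratio of 2.04 (1.59 to 2.62), and NAC61 hardly differed (1.11, 1.01 to 1.22). On the scale with 0.5 RPM added, the log2 ratios were -1.13 for NAC26, which 1.5% of all genes undercut, -1.07 for NAC60 (1.7%), -0.81 for NAC11 (2.8%) and -0.61 for NAC33 (4.5%). NAC13 stood at 0.79, above 99.3% of all genes.

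Markers of other tissues and stages were also lower in the same MT library. The 7 seed genes summed to 3.16 RPM in MT young berries and to 6.50 RPM in WT young berries, with 7 of 7 lower in the mutant and 4 of them at 0 there. Those 4 had only 7 to 9 reads each in WT young berries, and OLE-2 and PM31 had 33 and 48 reads. Globulin-1 alone, with 211 reads in MT and 474 in WT, made up most of both sums. For the other seed genes the lower level at this stage therefore rests on few reads. SEEDSTICK, an ovule identity gene, had 10.7 RPM in MT young berries and 67.4 RPM in WT young berries, and TRANSPARENT TESTA16, a seed coat gene in Arabidopsis, had 2.43 RPM in the MT library and 14.2 RPM in the WT library. These 2 were chosen after their values were seen. Both were more than 5-fold lower in the mutant, whereas of the NAC genes only NAC03 was. The ripe berry genes EXPB4 and class IV chitinase summed to 6.16 RPM in MT young berries and to 23.6 RPM in WT young berries, 3.79-fold and 3.86-fold lower in the mutant. The flower genes PISTILLATA and AP3 summed to 11.1 RPM in MT young berries and to 21.9 RPM in WT young berries, 2.56-fold and 1.74-fold lower. Thus 2 of 2 flower, 2 of 2 ripe berry, 7 of 7 seed and both ovule genes were lower in MT young berries. All of these marker genes are among the candidates that the study listed from these same libraries as altered between the clones. Their counts are therefore no independent evidence, and their part in the lower NAC levels was not tested.

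In ripe berries the order of the clones was another one. NAC61 had 1.70 times the wild-type level in the mutant (95% interval 1.64 to 1.77) and NAC60 1.63 times (1.56 to 1.70), while NAC33 was 2.16-fold lower (2.03 to 2.30) and NAC03 4.90-fold lower (3.61 to 6.78). NAC13 (ratio 0.875, 0.851 to 0.900), NAC26 (1.04, 1.01 to 1.07) and NAC11 (1.04, 0.980 to 1.11) were nearly level. With 0.5 RPM added, NAC33 and NAC03 were more than 2-fold lower, 2 of 7 against 6.38% of all genes, and 0 of 7 were more than 2-fold higher, against 1.47%. All genes spread more widely here than at the other stages, the middle 90% of log2 ratios running from -1.19 to 0.55, against -0.57 to 0.38 in young berries, so that NAC33 (-1.09) lay inside this range at E-L 38 and NAC60 (0.69) and NAC61 (0.76) lay above it. Without the added 0.5 RPM the log2 ratios were -1.11 for NAC33, 0.70 for NAC60 and 0.77 for NAC61, and with DESeq size factors in place of library totals they were -0.98, 0.84 and 0.90, so that NAC33 was then 1.97-fold lower and no longer past 2-fold.

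**Figure D2:**
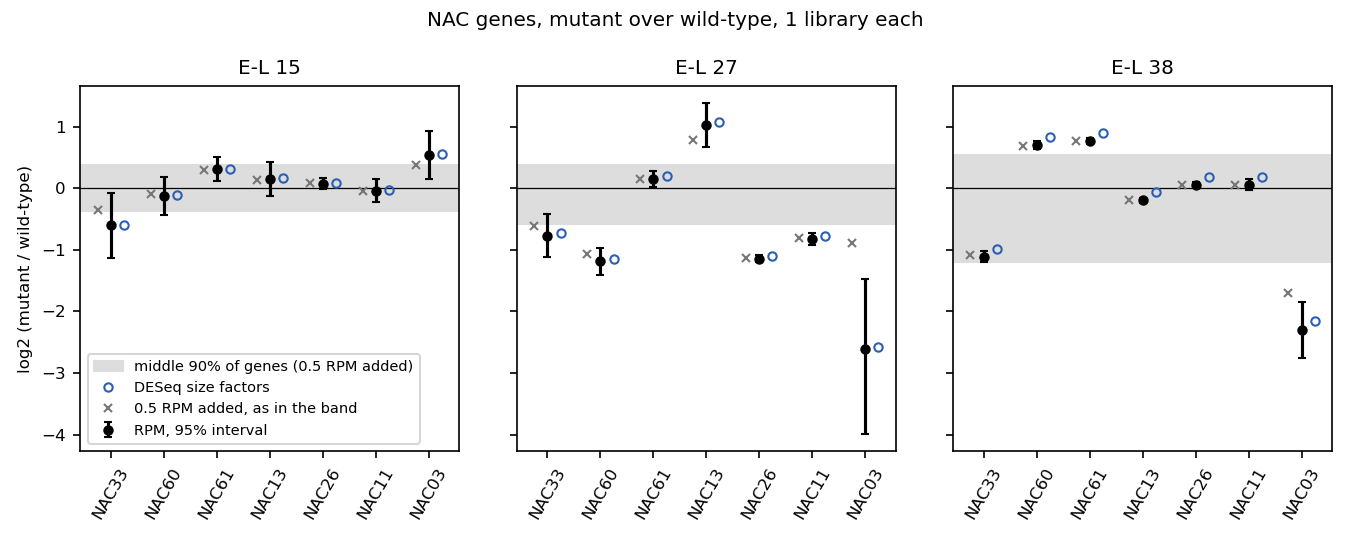
Log2 ratio of mutant to wild-type for the 7 NAC genes at each stage, 1 library each: filled points are RPM with 95% counting intervals, open circles use DESeq size factors, and crosses have 0.5 RPM added as the grey band does, which spans the middle 90% of the genes whose mean reached 1 RPM. At E-L 27 the crosses of NAC60, NAC26, NAC11, NAC33 and NAC03 lie below the band and that of NAC13 above it, and at E-L 38 NAC60 and NAC61 lie above it and NAC03 below.

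The same values can be read as the step of each clone between stages. Up to the young berries the step of the mutant, less that of the wild-type, was -1.22 on the log2 scale for NAC26 (95% counting interval -1.32 to -1.12), -1.06 for NAC60 (-1.43 to -0.69), -0.79 for NAC11 (-1.0 to -0.58) and -3.15 for NAC03 (-4.35 to -1.95). It was 0.88 for NAC13 (0.44 to 1.32), and the intervals of NAC33 (-0.78 to 0.43) and NAC61 (-0.39 to 0.07) held 0. Between young and ripe berries the mutant made the larger step in NAC60 (1.88, 1.66 to 2.10), NAC26 (1.2, 1.13 to 1.26), NAC11 (0.88, 0.76 to 1.01) and NAC61 (0.62, 0.47 to 0.76), and the smaller one in NAC13 (-1.22, -1.57 to -0.87). Over both steps together the clones came out level by RPM for NAC26 (-0.02, -0.12 to 0.07) and NAC11 (0.10, -0.11 to 0.30). With DESeq size factors the log2 steps were 2.59 in MT and 2.48 in WT for NAC26, and 2.89 and 2.66 for NAC11. By RPM the difference was below 0 for NAC03 (-2.83, -3.41 to -2.25), NAC33 (-0.52, -1.03 to -0.01) and NAC13 (-0.34, -0.61 to -0.07). It was above 0 for NAC60 (0.82, 0.52 to 1.13) and NAC61 (0.45, 0.26 to 0.65). With 1 library per clone and stage, these differences between steps could not be tested against the spread between bunches.

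NAC26 and NAC11 moved in opposite directions in the clones between young and ripe berries by RPM. NAC26 had 2.14 times its young berry level in MT ripe berries (95% interval 2.06 to 2.22) and 0.932 times in WT ripe berries (0.907 to 0.957), and NAC11 had 1.54 times in MT (1.43 to 1.65) and 0.833 times in WT (0.789 to 0.879). The drop in the wild-type rests on the scaling: with DESeq size factors the log2 ratios of the wild-type were 0.24 for NAC26 and 0.08 for NAC11, above 0, while those of the mutant were 1.53 and 1.05. The step of the mutant was the larger one under both scalings.

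**Figure D3:**
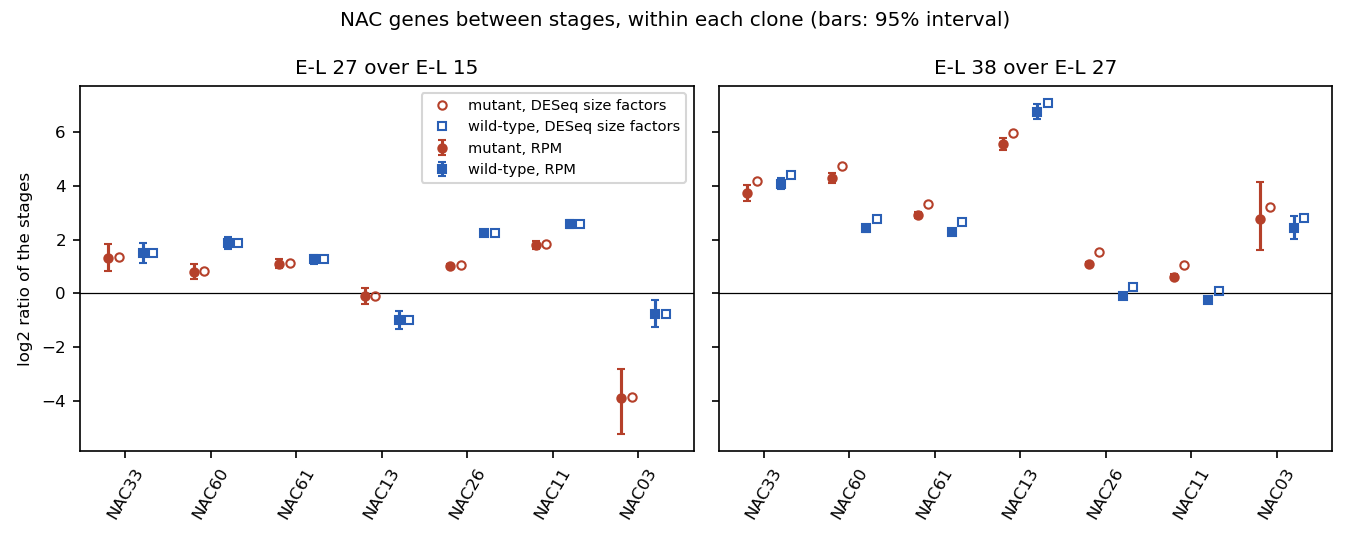
Log2 ratio of consecutive stages for the 7 NAC genes within the mutant (circles, left of each pair) and the wild-type (squares), as RPM with 95% counting intervals (filled) and with DESeq size factors (open). NAC26 and NAC11 have the larger step up to E-L 27 in the wild-type and up to E-L 38 in the mutant, and NAC13 has the largest step of all after that, 5.54 in MT and 6.76 in WT.

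The profiles of the 7 genes were then compared with each other and with all genes by the root mean square difference of log2(RPM + 0.5) over the 6 libraries, after centring each gene on its own mean, so that 0 means the same shape. Among 14694 genes with at least 10 RPM in at least 1 library, the gene most like NAC26 was NAC11 (difference 0.22). For NAC11, NAC26 came in place 2, after VIT_18s0001g09510 (0.21), a gene without a name in the files that had 18.5, 52.8 and 80.0 RPM in the mutant and 16.4, 71.7 and 61.7 RPM in the wild-type. With 0.05 RPM added and 20662 genes of at least 1 RPM, each of NAC26 and NAC11 was in place 4 for the other (0.25). NAC60 and NAC61 differed by 0.49 and NAC33 and NAC60 by 0.56, with 87 and 111 genes closer to the first of each pair. NAC13 differed from NAC33 by 1.03 and from NAC11 by 2.34, and NAC03 was at least 1.24 from each of the others.

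**Figure D4:**
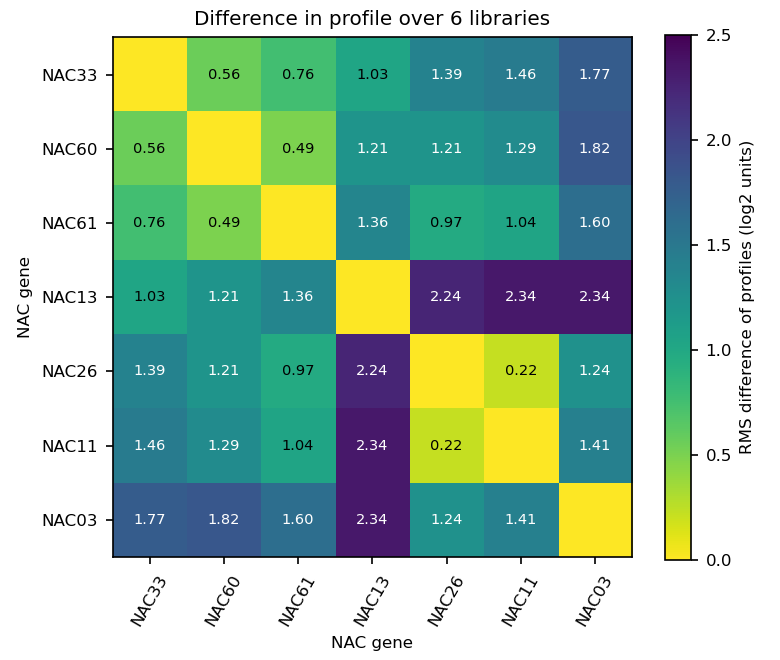
Root mean square difference between the centred log2(RPM + 0.5) profiles of each pair of NAC genes over the 6 libraries, in log2 units, where a darker cell is a larger difference. NAC26 and NAC11 form the closest pair (0.22), NAC33, NAC60 and NAC61 lie within 0.76 of one another, and NAC13 is 2.34 from both NAC11 and NAC03.

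How common each profile was differed between the genes. Within a difference of 0.5 there were 174 genes for NAC61, 171 for NAC26, 109 for NAC11, 93 for NAC60, 80 for NAC33, 43 for NAC03 and 13 for NAC13. The 3 nearest genes lay at 0.08 to 0.12 from NAC61, at 0.18 to 0.21 from NAC33, at 0.24 to 0.27 from NAC60 and at 0.33 to 0.41 from NAC13. For NAC03 they lay at 0.24 to 0.30, where 0.5 RPM was added to levels of that order. The likeness describes 6 libraries of 3 stages, which all genes share, and the files do not pair these nearest identifiers with names.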

How the data were processed

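RNA of 3 extractions of 1 biological replicate was pooled per clone and stage and sequenced as 100-bp reads. The authors used BWA to align reads to version v1 of the grapevine mRNA models, with at most 2 mismatches among the first 32 bases, used SAMtools to retain reads with 1 position, and deposited their counts per gene model. The deposited RPM values are these counts scaled by each library's uniquely mapped reads. It was checked that counts are whole and that RPM follow from them. Columns of no sample of the series numbered 0. The members and lists were chosen with earlier results of these data known.

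Stage and clone effects were tested with edgeR 4.0.16 in R 4.3.3 (filterByExpr, TMM, glmQLFit and glmQLFTest, 2 residual degrees of freedom). DESeq2 1.42.0 was an alternative, as were other scalings, no filter, dropping a term and leaving out each library. Stage calls within a clone followed the DESeq procedure for libraries without replicates (blind, local dispersion trend of the pair compared), rewritten with locfit 1.5.9.12. Ratios of RPM carry 95% exact conditional binomial (Clopper-Pearson) intervals, and those of differences between steps use the Poisson error of 4 counts. The edgeR fit and the calls were tested on simulated data. Genes named are the 7 members, for each the 3 genes nearest in profile, the identifier between NAC61 and NAC60, and markers. Python 3.11.15 with numpy 2.4.6, scipy 1.17.1, pandas 2.3.3 and matplotlib 3.10.9 was used. Of the identifiers, 0 matched the RefSeq gene table given, so no names, coordinates or sequences were taken from it, and other NAC genes and listed targets of NAC genes were not analysed here.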

Additional observations from a re-analysis of the deposited data

Results flagged for a closer look

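In 3 of the 7 genes the clones moved in opposite directions between 2 stages, each with a 95% counting interval that left out no change. How many of all genes did so was not counted, and none of these differences between the clones was tested. For NAC26 the log2 ratio of E-L 38 to E-L 27 was 1.10 in MT and -0.10 in WT. For NAC11 it was 0.62 in MT and -0.26 in WT, and for both genes the sign of the wild-type value turned with the scaling. For NAC03 the log2 ratio of E-L 38 to E-L 15 was -1.14 in MT (48 and 131 reads) and 1.69 in WT (328 and 95 reads), and it kept these signs with DESeq size factors (-0.67 in MT and 2.03 in WT).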

How the results depend on the processing

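Of the 308 alternative edgeR and DESeq2 values of single genes, 275 kept their side of the threshold. Another 22 fell below it and 11 rose above it. None of the called values changed direction, while the uncalled change of NAC03 in ripe berries against flowers did. Uncalled log2 differences of mutant over wild-type did so too. Without MT E-L 27, NAC60 turned from -0.12 to 0.38, NAC26 from -0.28 to 0.13 and NAC11 from -0.22 to 0.07. Without a term for stage, NAC13 turned from 0.33 to -0.06. The count of NAC genes past the edgeR threshold in young berries against flowers was 4 and ran between 0 and 5 without 1 library, with 0 to 9633 genes of the whole table, against 5219. Without 1 library, 9393 and 9665 genes passed in ripe against young berries when MT E-L 27 and WT E-L 27 were left out, against 15089, and 10399 in ripe berries against flowers without WT E-L 15, against 15748. Between the clones DESeq2 called 1 NAC gene and 58 genes in all, where edgeR called 0, and 1 gene in all without WT E-L 38. For the calls within a clone, the dispersion trend of the 3 libraries gave 2 NAC genes in ripe against young berries in MT, with 973 genes of the table called, against 760. It gave 4 NAC genes in ripe berries against flowers in MT. In young berries against flowers it called 73 genes of the table in MT, against 597, and 84 in WT, against 637. It called 1316 genes in ripe berries against flowers in MT, against 856. In young berries against flowers in WT, the trend of the other clone gave 2 NAC genes (NAC26 and NAC11) and a minimum of 10 counts gave 1. These settings called 729 and 646 genes of the table there, against 637. An edgeR exact test with an assumed coefficient of variation of 0.4 called 1 NAC gene in young berries against flowers in MT, 5 in ripe against young berries in each clone and 6 in ripe berries against flowers in each clone, with 1132 to 6333 genes of the table called. Of 126 rescaled log2 ratios, 4 changed sign: NAC26 and NAC11 in WT in ripe against young berries. They stood at 0.24 and 0.08 with DESeq size factors and at 0.21 and 0.05 with TMM factors. Another 53 kept their sign but fell outside the counting interval of the ratio by RPM, each of them a ratio with a ripe berry library. The remaining 69 stayed inside that interval, so the counting intervals do not cover the choice of scaling. The scaling apart, the cause of these changes was not tested. Of the 3 nearest genes of each NAC gene, 0 or 1 were shared when 0.05 RPM was added to genes of at least 1 RPM. The labels number no replicates that could pair samples beyond clone and stage, both of which the edgeR fit holds, and without its term for clone 3 NAC genes in place of 4 passed in young berries against flowers and 4 in place of 5 in ripe against young berries. The depth limits NAC03 most, with 7 reads in MT young berries.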
